A study of Mus musculus with 6 samples.

Results

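Macrophage lineage genes were read in RNA-seq libraries of cardiac fibroblasts isolated on Day 7 after myocardial infarction (MI). The 10 genes, *Csf1r*, *Adgre1*, *Cd68*, *C1qa*, *C1qb*, *C1qc*, *Mrc1*, *Lyz2*, *Fcgr1* and *Trem2*, were found by symbol in the deposited table of 34745 genes, and all 10 passed the count filter that left 14084 genes for testing. The libraries fall into 3 labelled KO, by the labels from KDM5B knockout mice whose *Kdm5b* gene carries a deletion of the bases encoding the catalytic JmjC domain, and 3 labelled WT, from wild-type littermates. All mice were male, 8 to 10 weeks old, and had MI induced by tying off the left anterior descending coronary artery, so no library comes from an uninjured heart. The deletion is in the whole animal, not in a chosen cell type, on a C57BL/6 background. The labels do not say whether the 3 libraries of a group came from separate mice, and p-values then measure only the spread between libraries. A step that sorts the cells before sequencing is not given in the sources used here.

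Macrophages clear dead tissue after MI and signal to fibroblasts that build the scar. Their survival depends on CSF1R, the receptor for the growth factors CSF1 and IL-34. F4/80 (*Adgre1*) and CD68 are the proteins by which macrophages are usually stained in mouse tissue, although CD68, a glycoprotein of late endosomes and lysosomes, is also found in other cells. *Lyz2* encodes lysozyme, *C1qa*, *C1qb* and *C1qc* the 3 chains of C1q, which starts the classical complement pathway, *Fcgr1* the high-affinity IgG receptor, *Mrc1* the mannose receptor and *Trem2* a lipid-sensing receptor of phagocytes.

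Of these 10 genes, 6 were lower and 1 was higher in the KO-labelled libraries, and 3 did not pass the threshold, an adjusted p of 0.05 by the quasi-likelihood test of edgeR after TMM normalization. Among all genes tested, 30.2% passed it, 12.5% lower and 17.7% higher. In the same 7 members the KO and WT libraries did not overlap, as in 47.0% of all genes tested. The 6 lower genes, *Csf1r*, *Adgre1*, *Lyz2*, *C1qa*, *C1qb* and *C1qc*, stood within a narrow range of log2 fold changes from -0.60 to -0.38. *Cd68* went the other way, with a log2 fold change of 1.38. The median over the 10 was -0.39, beside a median of -0.02 over all genes tested. These directions are relative to the scaling between libraries. With libraries scaled on 15 fibroblast marker genes, 0 of the 10 were lower, *Cd68* was still higher, and the median of the 10 was 0.03, while this scaling moved the median of all genes up by 0.42. Under it *Csf1r*, *Adgre1*, *Fcgr1* and *Trem2* changed sign.

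Totals ran from 12025403 to 15329427 counts per library. *Kdm5b*, which checks the labels, had 98.1, 107 and 105 CPM (counts scaled to the TMM-normalized library size) in the KO-labelled libraries and 108, 129 and 123 in the WT-labelled ones, a log2 fold change of -0.22 (adjusted p = 0.0574 from edgeR), so the groups are named by their labels throughout. The counts cover the whole gene, reads outside the deleted bases included, so they check the labels only in part. The level of *Kdm5b* under the KO label was 86.1% of that under the WT label, so its total count does not by itself set the KO-labelled libraries apart as knockout. The authors, by quantitative PCR, report next to no *Kdm5b* mRNA in cardiac fibroblasts of the knockout mice, which these counts do not show. Which part of the gene that PCR read is not given in the sources used here. *Kdm5b* was past the threshold and lower with upper quartile normalization (-0.26, adjusted p = 0.0324 from edgeR), with the replicate block (-0.21, adjusted p = 0.0271) and without WT replicate 1 (-0.29, adjusted p = 0.0188), and past it and higher with fibroblast marker scaling (0.20, adjusted p = 0.0443). The fibroblast label was read on 15 marker genes, all of them counted, whose summed FPKM (fragments scaled by gene length and by library total) was 3577 to 4129 in the KO-labelled libraries and 4916 to 5199 in the WT-labelled ones. In bulk libraries, fewer cells of a type and less RNA per cell cannot be told apart.

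The promoters of 4 members are shown because they are the called members with a promoter in the reference table, *Lyz2*, *C1qb* and *C1qc* on the lower side and *Cd68* on the higher side. Each runs from 250 bases before to 50 bases after the start of transcription, 5′ to 3′ on the strand of the gene, from RefSeq on GRCm38.p6. The submitters' processing notes name mm10 and GRCm38.p4, which is another patch release of the same assembly. Capitals mark GAGGAA on either strand, a sequence that the myeloid factor PU.1 can bind, and TGANTCA, the AP-1 site. The promoter of *Lyz2* is chr10:117282223-117282522, that of *C1qb* chr4:136886151-136886450, that of *C1qc* chr4:136892865-136893164 and that of *Cd68* chr11:69666121-69666420, all on the minus strand.
Lyz2: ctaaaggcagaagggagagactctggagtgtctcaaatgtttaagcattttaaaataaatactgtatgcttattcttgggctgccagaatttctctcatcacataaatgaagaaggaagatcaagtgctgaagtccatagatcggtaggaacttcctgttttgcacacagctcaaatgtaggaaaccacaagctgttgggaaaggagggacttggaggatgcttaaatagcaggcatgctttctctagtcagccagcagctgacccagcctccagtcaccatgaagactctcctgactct
C1qb: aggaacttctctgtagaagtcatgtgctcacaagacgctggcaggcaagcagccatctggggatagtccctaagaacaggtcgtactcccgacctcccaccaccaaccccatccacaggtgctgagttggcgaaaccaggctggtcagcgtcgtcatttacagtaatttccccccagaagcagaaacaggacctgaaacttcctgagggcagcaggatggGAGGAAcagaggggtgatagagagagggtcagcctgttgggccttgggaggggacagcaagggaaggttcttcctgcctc
C1qc: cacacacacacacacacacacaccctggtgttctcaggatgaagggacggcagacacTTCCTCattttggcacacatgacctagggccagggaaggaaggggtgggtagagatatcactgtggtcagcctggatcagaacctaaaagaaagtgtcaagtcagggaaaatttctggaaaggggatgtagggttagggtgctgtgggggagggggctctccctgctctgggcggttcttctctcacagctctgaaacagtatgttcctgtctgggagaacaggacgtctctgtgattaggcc
Cd68: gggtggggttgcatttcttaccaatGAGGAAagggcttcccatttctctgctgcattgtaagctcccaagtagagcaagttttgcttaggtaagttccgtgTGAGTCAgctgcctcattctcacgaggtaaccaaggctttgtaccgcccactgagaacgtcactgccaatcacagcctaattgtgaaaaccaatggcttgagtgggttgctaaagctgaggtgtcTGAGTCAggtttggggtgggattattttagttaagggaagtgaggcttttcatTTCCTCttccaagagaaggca

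A promoter was listed for 7 of the 10 members, and *Csf1r*, *Adgre1* and *C1qa* are named only. GAGGAA was found in 6 of the 7, all but *Lyz2*, and in 28.3% of the 32851 promoters of the same length. Its longer form GAGGAAGT was found in 1 of the 7, that of *C1qc*, and in 3.2% of all promoters, and each match to it is also a match to the shorter one. The AP-1 site TGANTCA was found in *Cd68*, at bases -149 and -24 from the start, and in *Trem2*, and in 7.81% of all promoters. The other motifs searched, on both strands, are not in these 7 windows. Of all promoters, the share with CACGTG was 7.15%, that with the TATA box TATAAA 13.6% and that with ATTGCG 2.68%, while 0.183% hold TTGCGCAA, 0.712% hold TTCCGGAA and 3.44% hold the interferon response element. A match is a description of letters, and *Cd68* shares GAGGAA with *C1qb* and *C1qc*. The lack of GAGGAA in *Lyz2* was not read as the lack of a PU.1 site.

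*Lyz2* (ENSMUSG00000069516, chromosome 10, positions 117277334 to 117282274), the most highly counted member, had 813, 858 and 813 CPM in the KO-labelled libraries and 1154, 1073 and 1104 CPM in the WT-labelled libraries. All KO-labelled libraries lay below all WT-labelled libraries, as they did in 22.4% of all genes tested. Its level was 74.6% of that in WT, a log2 fold change of -0.42 with a standard error of 0.05 (edgeR, adjusted p = 3.4e-04). Its close copy *Lyz1* had 3 to 6 counts in the KO-labelled libraries and 0 to 6 in the WT-labelled ones, so few of the reads of the pair were counted on it.

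*Csf1r* (ENSMUSG00000024621, chromosome 18, positions 61105572 to 61132149), the receptor on which macrophages depend, had 79.4, 76.9 and 74.4 CPM in the KO-labelled libraries and 108, 96.5 and 99.5 CPM in the WT-labelled libraries. The groups did not overlap, and the log2 fold change was -0.40 with a standard error of 0.06 (edgeR, adjusted p = 0.00192). Its last 873 bases overlap *Hmgxb3* on the other strand in the GENCODE M21 annotation, and whether the counting used strand is not stated. *Hmgxb3* itself had a log2 fold change of -0.02 (adjusted p = 0.874).

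*Adgre1* (ENSMUSG00000004730, chromosome 17, positions 57358686 to 57483529), which encodes F4/80, had 120, 128 and 138 CPM in the KO-labelled libraries and 163, 165 and 177 CPM in the WT-labelled libraries. These groups did not overlap either, and the log2 fold change was -0.38 with a standard error of 0.06 (edgeR, adjusted p = 0.0027). *Lyz2*, *Csf1r* and *Adgre1* therefore fell to 74.6%, 75.9% and 76.6% of the level in WT under TMM normalization.

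The C1q genes lie side by side on the minus strand of chromosome 4, *C1qb* from 136880129 to 136886187, *C1qc* from 136889804 to 136893065 and *C1qa* from 136895917 to 136898803. *C1qb* (ENSMUSG00000036905) had 22.8, 25.9 and 22.0 CPM in the KO-labelled libraries and 33.3, 36.6 and 37.5 CPM in the WT-labelled libraries, a log2 fold change of -0.60 with a standard error of 0.09 (edgeR, adjusted p = 0.00171). *C1qc* (ENSMUSG00000036896) had 15.7, 16.4 and 14.0 CPM against 23.2, 21.8 and 19.4 CPM, a log2 fold change of -0.49 with a standard error of 0.11 (adjusted p = 0.01). *C1qa* (ENSMUSG00000036887) had 12.6, 13.1 and 10.8 CPM against 17.9, 15.2 and 16.9 CPM, a log2 fold change of -0.45 with a standard error of 0.12 (adjusted p = 0.0194). In each of the 3 genes the KO-labelled libraries lay below the WT-labelled ones. The call of *C1qa*, but not its direction, was lost without KO replicate 3 (log2 fold change -0.37, adjusted p = 0.0685 from edgeR), without WT replicate 1 (-0.40, adjusted p = 0.062) and without WT replicate 3 (-0.45, adjusted p = 0.0553). *C1qb* fell most of the 10, and 3.25% of all genes tested had a lower log2 fold change.

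*Cd68* (ENSMUSG00000018774, chromosome 11, positions 69664213 to 69666153) had 101, 78.8 and 83.9 CPM in the KO-labelled libraries and 32.8, 35.2 and 32.9 CPM in the WT-labelled libraries. All KO-labelled libraries lay above all WT-labelled libraries, as in 24.7% of all genes tested, and the lowest of them was more than 2 times the highest WT value. The level was 2.61-fold that in WT, a log2 fold change of 1.38 with a standard error of 0.10 (edgeR, adjusted p = 3.9e-05), and 4.3% of all genes tested had a higher one. No annotated gene overlaps *Cd68*. Its neighbours on the same strand, read after the value of *Cd68* was seen, had log2 fold changes of -0.10 for *Eif4a1* (adjusted p = 0.149) and 0.16 for *Mpdu1* (adjusted p = 0.226), and neither passed the threshold.

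The remaining members were the least abundant, and their groups overlapped. *Fcgr1* (ENSMUSG00000015947, chromosome 3, positions 96282909 to 96293969) had 7.62, 6.75 and 5.42 CPM in the KO-labelled libraries and 8.40, 7.37 and 8.18 CPM in the WT-labelled libraries, a log2 fold change of -0.28 with a standard error of 0.16 (edgeR, adjusted p = 0.21). *Trem2* (ENSMUSG00000023992, chromosome 17, positions 48346401 to 48354147) had 6.88, 7.43 and 5.67 CPM against 7.77, 10.0 and 5.47 CPM, a log2 fold change of -0.23 with a standard error of 0.22 (adjusted p = 0.486). The value of *Fcgr1* ran from -0.39 without KO replicate 1 to -0.15 without KO replicate 3. WT replicate 2 sets the sign of *Trem2*, and leaving it out gave a log2 fold change of 0.002, while the value was -0.42 without WT replicate 3 and -0.11 without KO replicate 3. *Mrc1* (ENSMUSG00000026712, chromosome 2, positions 14229392 to 14332057) had 3.77, 2.33 and 3.22 CPM against 1.54, 3.07 and 2.77 CPM, from 22 to 50 counts per library, a log2 fold change of 0.33 with a standard error of 0.30 (adjusted p = 0.439). Without WT replicate 1 the value of *Mrc1* was 0.08, without KO replicate 1 it was 0.19, and without KO replicate 2 or WT replicate 2 it was 0.51 or 0.52. The standard errors of these 3 genes are larger than those of the called members, and a change of the size seen in *Lyz2* is less than 2 standard errors of *Mrc1* or *Trem2*.

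**Figure D1:**
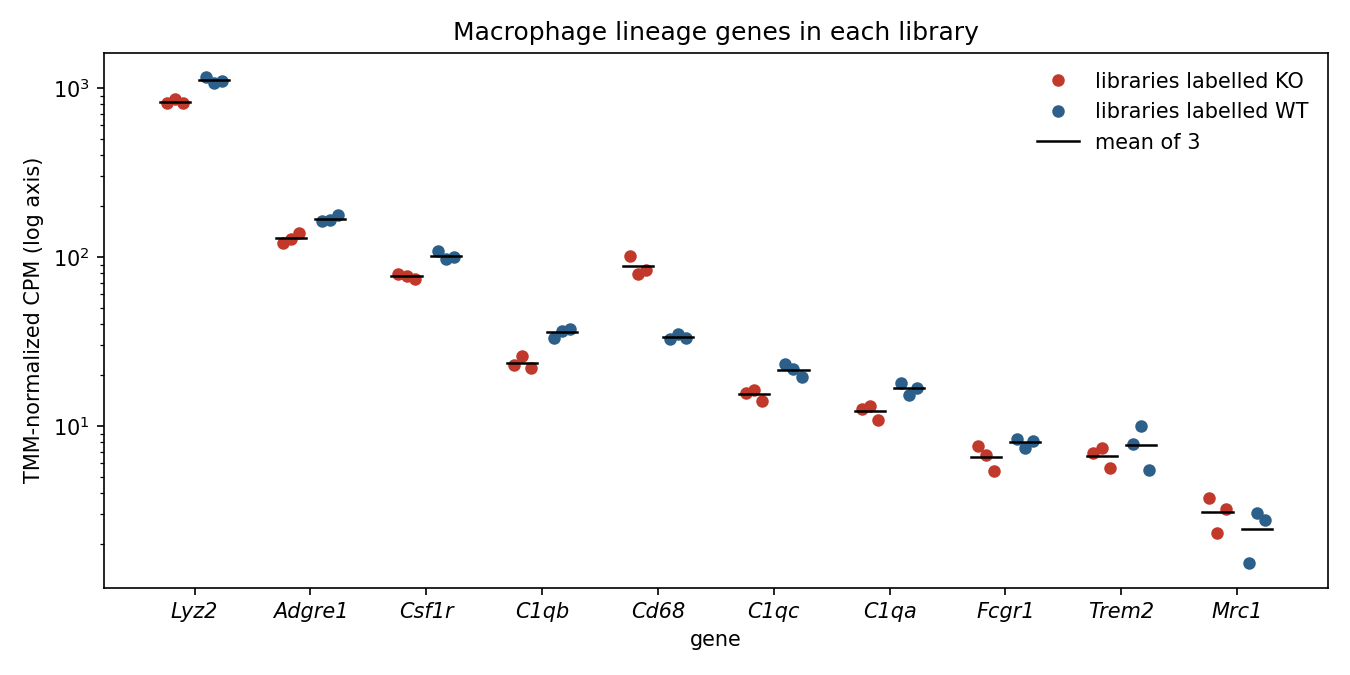
TMM-normalized CPM of the 10 members on a log axis, with each library as a point (red, labelled KO, and blue, labelled WT) and the mean of 3 as a bar. *Lyz2*, *Adgre1*, *Csf1r* and the C1q genes were lower in every KO-labelled library, *Cd68* was higher, from 78.8 to 101 against 32.8 to 35.2 CPM, and *Fcgr1*, *Trem2* and *Mrc1* overlapped.

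By the exact permutation test, two-sided and over 6 libraries, the result was p = 0.1 for each of the 7 called members, the smallest p that 3 libraries against 3 allow, and p = 0.2, 0.5 and 0.4 for *Fcgr1*, *Trem2* and *Mrc1*.

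Levels of different genes were compared per length, in deposited FPKM. In the WT-labelled libraries, *Lyz2* led with 866 ± 34.1 FPKM (SD, n = 3), followed by *Adgre1* with 46.0 ± 2.02, *C1qb* with 32.5 ± 2.00 and *Csf1r* with 17.1 ± 1.03 FPKM. *Cd68* and *C1qa* followed with 16.1 ± 0.617 and 15.8 ± 1.33 FPKM, and the range of *Cd68* overlapped those of both *Csf1r* and *C1qa*. No other neighbours in this order overlapped. *C1qc* had 9.87 ± 0.898, *Fcgr1* 2.70 ± 0.190, *Trem2* 1.25 ± 0.366 and *Mrc1* 0.326 ± 0.107 FPKM. In the KO-labelled libraries the order was the same except for *Cd68*, which moved to the second place with 43.0 ± 5.89 FPKM (SD, n = 3), where its range overlapped that of *Adgre1* at 36.1 ± 2.37 FPKM. The FPKM of *Lyz2* there was 661 ± 17.3.

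Ratios of the counts of 2 genes in the same library do not depend on how libraries are scaled. They are a description, for pairs chosen with the values known. The log2 ratio of *Lyz2* to *Csf1r* was 3.35, 3.48 and 3.45 in the KO-labelled libraries and 3.42, 3.47 and 3.47 in the WT-labelled ones, so that the means differed by -0.03. The ratio of *Adgre1* to *Csf1r* differed by 0.01 between the means (SD 0.14 and 0.12 within the labels), and the libraries overlapped. The ratio of *C1qb* to *Csf1r* differed by -0.21 (SD 0.12 and 0.17), again with overlap. The ratio of *Cd68* to *Csf1r* was 0.35, 0.03 and 0.17 in the KO-labelled libraries and -1.72, -1.45 and -1.60 in the WT-labelled ones, without overlap. *Csf1r* kept a similar ratio to *Col1a1*, the collagen chain that is among the most abundant fibroblast transcripts, with a difference of 0.05 (SD 0.16 and 0.18), as did *Lyz2*, with a difference of 0.02 (SD 0.10 and 0.15).

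**Figure D2:**
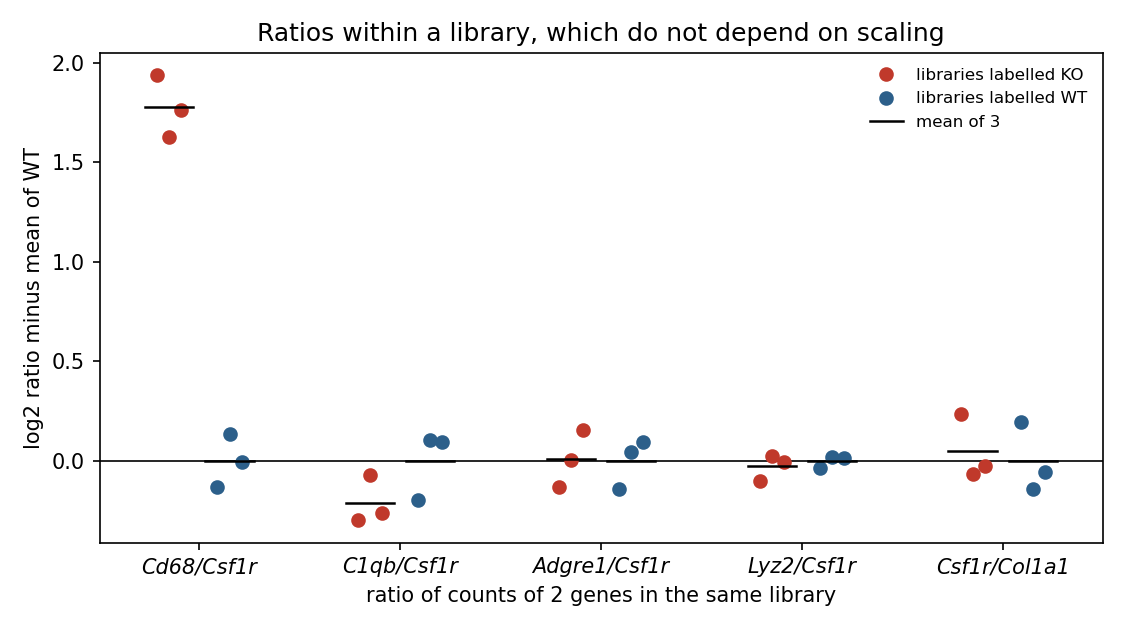
Log2 ratio of the counts of 2 genes within each library, shown relative to the mean of the WT-labelled libraries, with the mean of 3 as a bar. *Cd68* relative to *Csf1r* was higher by 1.78 in the mean of the KO-labelled libraries, while *Adgre1*, *Lyz2* and *C1qb* relative to *Csf1r*, and *Csf1r* relative to *Col1a1*, overlapped between the labels.

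Each member was also set against the mean log2 CPM of the other 9 in the same library, as a description with no test. *Cd68* stood at 1.92, 1.60 and 1.80 in the KO-labelled libraries and at 0.07, 0.09 and 0.07 in the WT-labelled ones, a difference of 1.70. The differences of the other members ran from -0.51 for *C1qb* to 0.57 for *Mrc1*, and *Cd68* is part of the mean for each of them. The value of *Mrc1* ran from 0.25 without WT replicate 1 to 0.79 without KO replicate 2.

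With fibroblast marker scaling, the log2 fold changes of *Csf1r*, *Adgre1* and *Lyz2* were 0.03, 0.04 and -0.002 (adjusted p = 0.811, 0.665 and 0.979 from edgeR). *C1qa*, *C1qb* and *C1qc* were at -0.03, -0.18 and -0.07, none past the threshold (adjusted p = 0.846, 0.108 and 0.664). *Cd68* was at 1.81 with a standard error of 0.13 (adjusted p = 1.9e-05). *Mrc1* was at 0.76 with an adjusted p of 0.0608. Relative to fibroblast marker genes, *Cd68* was therefore the 1 member that passed the threshold. This scaling called 8780 of the 14084 genes tested higher and 38 lower, so a higher call was common under it and a lower call rare.

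**Figure D3:**
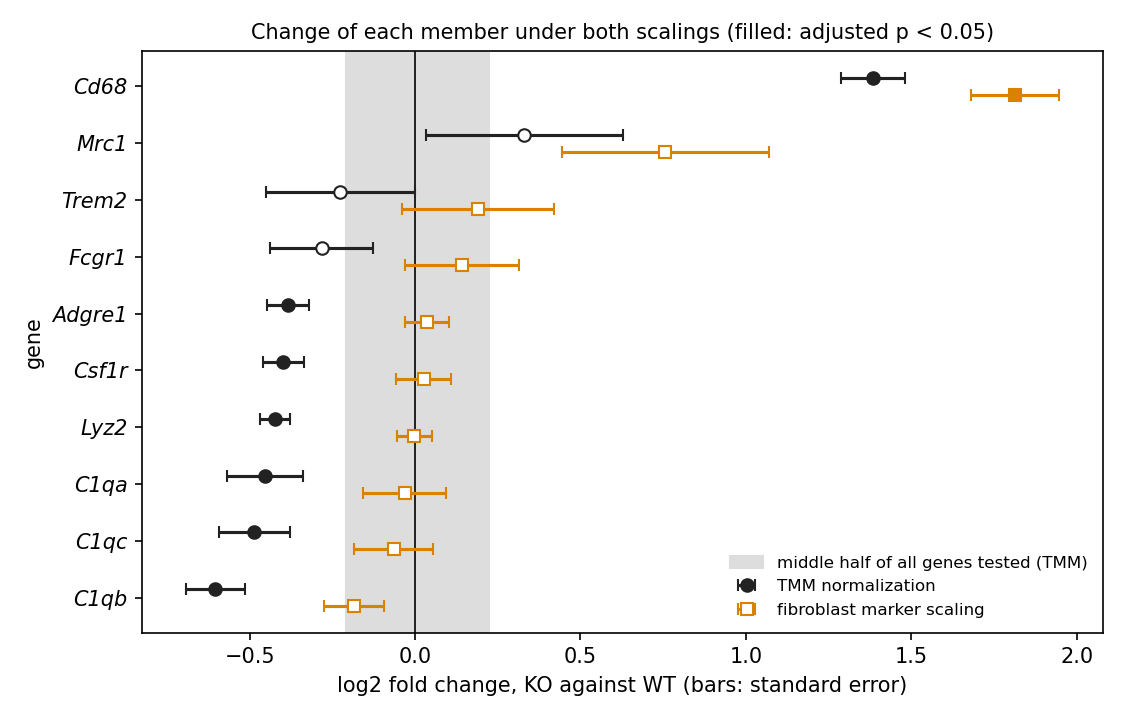
Log2 fold change of each member, KO against WT, with its standard error, under TMM normalization (circles) and under scaling on fibroblast marker genes (squares), filled where the adjusted p is under 0.05. Under TMM 8 members lie left of the grey band that spans the quartiles of all genes tested, from -0.21 to 0.22. *Fcgr1* and *Trem2* are among them without passing the threshold. Under fibroblast marker scaling all called members but *Cd68* lose the call, with *Csf1r*, *Adgre1*, *Fcgr1* and *Trem2* on the other side of 0. That scaling called 8780 of the 14084 genes tested higher and 38 lower.

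A further list of 30 macrophage markers that are not members showed both directions, with 29 tested, 15 lower, 4 higher and 10 not past the threshold (median log2 fold change -0.37). Over all related lists together, with the members left out, 42 of the 108 genes tested were lower and 23 higher. Of all genes tested, 12.5% were lower and 17.7% higher. With fibroblast marker scaling 0 of the 108 were lower and 39 higher, beside 38 lower and 8780 higher of all 14084 genes. Those 39 are therefore not a rise beyond that of all genes. *Tyrobp*, the adaptor through which TREM2 signals, was lowest among the called genes of this list of macrophage markers, at -0.60 (adjusted p = 0.0051 from edgeR), and *Itgam*, the alpha chain of complement receptor CR3, had -0.61 with an adjusted p of 0.171. The 2 highest of the same list were *Pf4*, platelet factor 4, which macrophages also make, and *Mertk*, a receptor for the uptake of dying cells. *Pf4* had 38.9, 27.2 and 29.3 CPM in the KO-labelled libraries and 3.36, 5.60 and 4.05 CPM in the WT-labelled ones, a log2 fold change of 2.87 (adjusted p = 4.3e-05). *Mertk* had 34.4, 25.1 and 26.7 CPM against 16.0, 12.4 and 13.6 CPM, a log2 fold change of 1.04 (adjusted p = 0.00135). Like *Cd68*, both were above every WT library in each KO-labelled library.

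Among the ligands and receptors of the colony-stimulating factors, 9 genes with *Csf1r* included, 3 were lower, 2 higher and 4 not past the threshold. *Csf1*, the ligand of CSF1R, fell (named after its values were seen), from 1747, 1731 and 1769 CPM in the WT-labelled libraries to 1319, 1430 and 1370 CPM in the KO-labelled ones, a log2 fold change of -0.35 (adjusted p = 6.7e-04 from edgeR). *Csf2ra*, a receptor chain for GM-CSF, was at -0.61 (adjusted p = 0.00563) and *Csf2rb2* at -0.44 (adjusted p = 0.129). The genes of the cytokines GM-CSF (*Csf2*) and G-CSF (*Csf3*) rose, with log2 fold changes of 2.00 and 2.80 (adjusted p = 0.0196 and 3.5e-04).

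Of 18 transcription factors of myeloid cells, 15 could be tested, with 5 lower, 5 higher and 5 not past the threshold. *Cebpa* had the lowest log2 fold change, -0.70 (adjusted p = 0.018 from edgeR), followed by *Maf* at -0.55 (adjusted p = 8.4e-04). *Spi1*, which encodes PU.1 and was named after its values were seen, had 13.8, 16.1 and 16.1 CPM in the KO-labelled libraries and 23.9, 19.8 and 23.7 CPM in the WT-labelled ones, a log2 fold change of -0.55 (adjusted p = 0.00757). *Batf3*, a factor of dendritic cell development, had the highest log2 fold change, 2.75 (adjusted p = 0.00161).

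Around the Fc receptor *Fcgr1*, a list of 12 Fc receptors and their signaling proteins held 7 lower, 2 higher and 3 not past the threshold. *Fcgr2b*, the inhibitory IgG receptor, was at -0.53 (adjusted p = 0.00332 from edgeR) and *Fcrls* at -0.60 (adjusted p = 0.124). The kinase gene *Lyn* and the phosphatase gene *Inpp5d* (SHIP1) rose, at 0.83 and 1.79 (adjusted p = 0.00111 and 5.6e-05). Around *Trem2*, 15 of 17 partners and associated genes were tested, with 6 lower, 5 higher and 4 not past the threshold. The highest were *Inpp5d* and *Cd9*, a tetraspanin, at 1.73 (adjusted p = 1.3e-05), and the lowest *Tyrobp* and *Clec7a*, the receptor Dectin-1, at -0.55 (adjusted p = 0.00494).

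Around *Mrc1*, 15 of 20 scavenger and lectin receptors were tested, with 6 lower, 2 higher and 7 not past the threshold. Besides *Clec7a*, the lowest was *Mrc2*, the collagen receptor Endo180 of fibroblasts, at -0.46 (adjusted p = 3.1e-04 from edgeR). *Stab1*, a scavenger receptor, was at 0.65 (adjusted p = 4.8e-04) and *Clec4e*, the receptor Mincle, at 1.45 (adjusted p = 0.00684). *Cd163*, *Cd209a* and *Cd209f* had a count of 0 in every library. Around C1q, 17 of 18 genes of the classical pathway and of complement receptors were tested, with 6 lower, the 3 C1q genes among them, 1 higher and 10 not past the threshold. *Serping1*, the C1 inhibitor, was at -0.44 (adjusted p = 0.00117), *C3* at 0.13 (adjusted p = 0.0555), and *Cd93*, a receptor of endothelial and myeloid cells, at 2.08 (adjusted p = 1.5e-05).

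Of 13 genes typical of resident macrophages, 6 could be tested, with 2 lower, 1 higher and 3 not past the threshold, and *Timd4*, *Cd163* and *Cd209f* had a count of 0 in every library. *Folr2* was at -0.62 with an adjusted p of 0.318 (edgeR) and *Cbr2* at -0.04 with an adjusted p of 0.926. The gene that rose was *Lyve1*, which lymphatic endothelium also expresses, from 1.96, 1.02 and 1.35 to 113, 89.0 and 91.8 CPM (log2 fold change 6.08, adjusted p = 1.9e-06). Of 13 genes of monocytes and recruited macrophages, 8 could be tested, with 4 lower, 2 higher and 2 not past the threshold. *Itgal* and *Plac8* were at -0.47 and -0.41 (adjusted p = 0.00361 and 0.0346), and *Nr4a1* and *Ace*, which is also an endothelial gene, at 1.45 and 1.496 (adjusted p = 5.6e-05 and 3.9e-05). The lower genes also held *Vcan* and *Fn1*, named after their values were seen, at -0.36 and -0.35 (adjusted p = 0.00187 and 0.00909). *Fn1*, which the authors count as fibrosis-related, had a mean of 16230 CPM in the WT-labelled libraries. The fibroblast marker *Col1a1* had 16980 there, so this list does not read monocytes alone.

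Marker genes of other cell types moved in the same libraries. The median log2 fold changes were -0.42 for 15 fibroblast markers, of which 13 were lower and 0 higher, -0.42 for the 9 cardiomyocyte markers tested, with 7 lower and 0 higher, and -0.42 for the 7 mural cell markers tested, with 4 lower and 1 higher. The fibroblast genes *Col1a1* and *Col1a2* were at -0.44 and -0.38, the cardiomyocyte genes *Nppa* and *Actc1* at -0.43 and -0.42, and the mural genes *Pdgfrb* and *Cspg4* at -0.42 and -0.43, all past the threshold. These values lie close to those of *Lyz2*, *Csf1r* and *Adgre1*, and whether the cell types shared a cause was not tested. The 14 endothelial markers had 12 higher and 0 lower, with a summed FPKM of 277 to 382 in the KO-labelled libraries and 84.3 to 84.6 in the WT-labelled ones, and *Cdh5* and *Pecam1* were at 2.31 and 3.98. Their part in the rise of *Cd68* was not tested.

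Other blood cell markers were low. Of 14 markers of T, B and NK cells, 10 had at most 3 counts in every library, among them *Cd3d*, *Cd3e*, *Cd3g* and *Cd8a* with a count of 0 throughout, and the summed FPKM was 2.42 to 2.84 in the KO-labelled libraries and 3.42 to 4.03 in the WT-labelled ones. *Trac* was at -0.59 with an adjusted p of 0.0561 (edgeR), and *Cd79b* was too low to be tested. The 12 neutrophil markers summed to 15.6 to 20.1 against 11.7 to 14.1 FPKM, with *Elane* at 0 and 6 of the 12 tested, 1 lower and 2 higher, and their most abundant genes *Mmp8* and *Mmp9* were at -0.55 and 0.14 (adjusted p = 0.0177 and 0.318). The 11 dendritic cell markers summed to 4.24 to 5.39 against 3.997 to 4.13 FPKM, with *Clec9a*, *Cd209a* and *Siglech* at 0, and *Zbtb46* and *Cd74* were at 0.49 and 0.38 (adjusted p = 0.0123 and 0.412). The 8 mast cell markers summed to 1.03 to 1.28 against 1.27 to 1.58 FPKM, with *Cpa3*, *Tpsb2* and *Fcer1a* at 0, and *Kit* and *Hdc* did not pass (adjusted p = 0.0795 and 0.853). The 10 members summed to 783 to 816 FPKM in the KO-labelled libraries and 974.6 to 1043 in the WT-labelled ones, most of it *Lyz2*.

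The profile of the members over the 6 libraries was compared with that of 6582 other genes whose mean FPKM was 5 or more, by the Euclidean distance between log2 CPM values centred on their mean. The nearest to the mean of the 10 members were *Slc25a46*, *Slc30a6*, *Ier2*, *Nme1* and *Sesn2*, at distances of 0.04 to 0.06, a mean in which *Cd68* offsets part of the lower genes. Because of this, single members were also used, a choice made after the values were seen. Nearest to *Lyz2* were *Postn*, *Bmper*, *Kdelr1*, *Sfrp1* and *Tnnt2*, at log2 fold changes from -0.46 to -0.42. Nearest to *Cd68* were *Cdk18*, *Mcam*, *Birc5*, *Nqo1* and *Dab2*, at log2 fold changes from 1.32 to 1.40.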

How the data were processed

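Cardiac fibroblast RNA was sequenced by the authors from strand-specific libraries in paired ends of 150 bases. HISAT2 with default settings placed them on mm10. The counting tool, its strand setting and the annotation release are not given in the sources used here. The submitters' processing notes also name edgeR, without a role. The authors deposited raw counts and FPKM values per gene and library. The quasi-likelihood test of edgeR 4.0.16 (R 4.3.3) was run on the counts after filterByExpr and TMM, over all 6 libraries without a covariate, with p-values adjusted over 14084 genes by Benjamini-Hochberg, and was tested on simulated data. Standard errors are the fold change divided by the root of the F statistic. For a gene without counts the upper limit is 3 counts, which is 0.249 CPM at the lowest depth, for counting error only. Libraries of the same label differed at an unadjusted p of 0.05 in 22.3% to 31.8% of genes, so none is a duplicate.

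The alternatives tried were DESeq2 1.42.0, a filter at a mean CPM of 1 or none, library size, the upper quartile, scaling on fibroblast markers, limma 3.58.1 on log2(FPKM + 1) and log2(FPKM + 0.1), a replicate block, each library left out, and other thresholds. Named genes are the members, *Kdm5b*, the 2 highest and 2 lowest log2 fold changes of each related list, the 2 most abundant genes of each marker list and the 5 nearest profiles. Some genes that this rule names are not reported here. The members and lists were chosen with earlier results of these data known. Annotation was GENCODE M21 and promoters were from RefSeq. Figures were drawn with matplotlib 3.10.9.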

Additional observations from a re-analysis of the deposited data

How the results depend on the processing

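Apart from fibroblast marker scaling, 14 alternatives were fitted for each member, and 136 of the 140 values kept their direction and their side of the threshold. The others were *C1qa* without KO replicate 3, WT replicate 1 or WT replicate 3, and *Trem2*, whose log2 fold change was 0.0018 without WT replicate 2. The number of members called lower was 5 to 6 and of those called higher 1 when 1 library was left out. At an adjusted p under 0.01 it was 4 lower, without *C1qa* and *C1qc*, and 1 higher. With 1 library left out, the median log2 fold change of the members was -0.42 to -0.37. Among all genes tested, 1131 to 1614 were lower and 2013 to 2508 higher, with the lowest lower count, 1131, without KO replicate 3, where the full data gave 1760 and 2488. In the related lists 29 to 40 genes were lower and 23 to 24 higher.

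Fibroblast marker scaling gave 0 members lower, a median of 0.031, and values of 0.026, 0.036, 0.14 and 0.19 for *Csf1r*, *Adgre1*, *Fcgr1* and *Trem2*. It called 38 genes lower and 8780 higher over all genes, and 0 lower and 39 higher in the related lists. It raises every gene by about the same amount, 0.42 in the median. The upper quartile in place of TMM moved the share of higher genes among all called from 58.6% to 49.4%.

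*Kdm5b* passed the threshold with the upper quartile (-0.26, adjusted p = 0.0324 from edgeR), with fibroblast marker scaling, where it was higher (0.20, adjusted p = 0.0443), with the replicate block (-0.21, adjusted p = 0.0271) and without WT replicate 1 (-0.29, adjusted p = 0.0188), and its value ran from -0.29 to -0.17 when 1 library was left out. Whether libraries of the same number form pairs is not settled here. The correlation of same-numbered libraries was small, 0.02 to 0.03, but each KO library correlated best with the WT library of its own number. With the replicate block 1591 genes were lower and 2316 higher, the members' median was -0.39, and 6 members were lower and 1 higher. *Mrc1*, *Trem2* and *Fcgr1* had the fewest counts of the members, and the part of depth in their missing calls was not tested.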

Other observations

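Among the neutrophil markers, *S100a8* and *S100a9*, the chains of calprotectin, are named because of their values. *S100a8* had 6.06, 3.98 and 4.06 CPM in the KO-labelled libraries and 1.12, 0.205 and 0.427 CPM in the WT-labelled ones (log2 fold change 2.99, adjusted p = 0.00174 from edgeR). *S100a9* had 19, 11 and 15 counts against 5, 3 and 4 (log2 fold change 1.95, adjusted p = 0.0106). *Ly6g*, a surface marker of mouse neutrophils, had 15, 10 and 7 counts in the KO-labelled libraries and 0 in each WT-labelled one, and was too low to be tested. The other neutrophil markers gave no such call. *Mmp8* was lower, *Mmp9*, *Camp* and *Csf3r* did not pass the threshold (adjusted p = 0.318, 0.3 and 0.308), *Cxcr2*, *Ltf*, *Retnlg* and *Ngp* had at most 6 counts in any library, and *Elane* had 0.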
